A study of Mus musculus with 6 samples.

Results

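RNA was measured for 8 genes of the nuclear lamina and inner nuclear membrane, Tmpo, Lmnb1, Lmnb2, Lmna, Lbr, Emd, Banf1 and Lemd3, among 35976 genes counted in cultured mouse dorsal root ganglion (DRG) neurons. The members were listed by symbol and selected on earlier results of the same treated versus vehicle contrast, in which Tmpo was singled out, so their changes are given as a description with no test. Lumbar DRG came from wildtype C57BL/6 mice of both sexes, and the neurons were plated for 24 h before treatment. In the vehicle group 3 cultures received vehicle for another 24 h, and in the HC-HA/PTX3 group 3 cultures received 15 µg/mL HC-HA/PTX3, a water-soluble matrix of hyaluronan with bound heavy chains and pentraxin 3 from human amniotic membrane. All 6 cultures grew in medium with fetal bovine serum and growth factors. Libraries were made from total RNA after removal of ribosomal RNA and ranged from 37434266 to 54117547 counts. The vehicle libraries totalled 42516054, 42617496 and 54117547 counts for replicates 1 to 3, and the HC-HA/PTX3 libraries 37998071, 37434266 and 38420247. Levels are in CPM (counts relative to library size, the usual unit of edgeR) scaled by the trimmed mean of M-values (TMM), on which 1 CPM stood for 37.1 to 56.0 counts.

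The nuclear lamina is a meshwork of intermediate filaments beneath the inner nuclear membrane, built of A-type lamins from Lmna and B-type lamins from Lmnb1 and Lmnb2. Membrane proteins such as the lamin B receptor and the LEM-domain proteins tie this meshwork to chromatin, partly through the DNA-bridging protein encoded by Banf1. The envelope is taken apart and rebuilt at each cell division, whereas in neurons, which do not divide, it persists, and the balance of A-type to B-type lamins differs between tissues.

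As a check of the label, all 12 sensory neuron markers were detected, and their summed level was 7702, 6541 and 7249 CPM in vehicle replicates 1 to 3 and 8100, 7143 and 8189 CPM in the treated replicates. Tubb3, a neuronal tubulin, was the most abundant of them, by the mean over all 6 cultures that is used for each list. Markers of dividing cells and of fibroblasts were present as well, so the cultures did not hold neurons alone. In a bulk library, fewer cells of a type and less RNA per cell cannot be told apart. Replicate 3 stood apart in both groups, with the lowest summed levels of satellite glia, fibroblast and G2 and M phase markers, and each member is therefore also given without that pair.

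After HC-HA/PTX3, the members with the lowest RNA relative to vehicle were both B-type lamins, Tmpo and Lbr, with log2 fold changes from -0.97 to -0.54, while Lmna, at 0.05, was within the spread between cultures. Emd, Banf1 and Lemd3 lay between these, from -0.32 to -0.09. Of the 8 members, 4 passed both thresholds used for calls (a log2 fold change beyond 0.5 in size with an adjusted p under 0.05), all of them lower. Over all 18277 tested genes, 984 were called lower (5.38%) and 607 higher (3.32%). Lower levels in the treated culture of all 3 same-numbered pairs were seen in 7 of the 8 members and in 28.7% of tested genes. Groups that did not overlap, with all treated cultures lower, were seen in 1 member, Lmnb2, and in 8.57% of tested genes. Since the contrast itself chose the members, nothing is read from these counts. Passing the thresholds is used as a label for members and is no test of them. All 8 members passed the low-count filter.

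Tmpo encodes thymopoietin, also called LAP2, whose isoforms include membrane proteins that bind B-type lamins and a soluble nucleoplasmic form that binds A-type lamins. The counts are per gene and do not separate these isoforms. Tmpo lies on the minus strand of chromosome 10, at 91147571 to 91181315 of mm10, the build of all positions here. It was measured at 105, 94.5 and 68.7 CPM in vehicle replicates 1, 2 and 3, and at 60.8, 72.6 and 44.9 CPM in the same-numbered treated replicates. Replicate 3 was the lowest culture in each group, and the groups overlapped because treated replicate 2 lay above vehicle replicate 3. Within the pairs, the treated culture held 58.0%, 76.8% and 65.3% of its vehicle partner's level. In the edgeR fit that takes the replicate number as a blocking term, called the blocked fit, its log2 fold change was -0.59 (SE 0.08). Group means were 89.4 ± 18.7 and 59.4 ± 13.9 CPM (SD, n = 3 each). Without replicate 1 the log2 fold change of Tmpo was -0.49, just short of the fold threshold, and without replicate 3 it was -0.57.

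Lmnb1 encodes lamin B1, a farnesylated lamin that stays attached to the inner nuclear membrane. It was measured at 53.0, 43.8 and 27.0 CPM in vehicle replicates 1 to 3 and at 22.1, 31.6 and 12.6 CPM in the treated replicates. Vehicle replicate 3 was below treated replicate 2, so the groups overlapped, although each treated culture was below its own partner. The treated cultures of Lmnb1 held 41.8%, 72.1% and 46.6% of the level in their vehicle partners. For Lmnb1 the log2 fold change was -0.94 (SE 0.13), and it was -0.85 without replicate 3. Its coefficient of variation between cultures was 31.9% in the vehicle group and 42.9% in the treated group.

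Lmnb2 encodes lamin B2, the other B-type lamin, and lies on the minus strand of chromosome 10 from 80901203 to 80918245. Its level was 23.0, 28.3 and 22.0 CPM in the vehicle replicates and 11.5, 19.8 and 8.15 CPM in the treated replicates. The highest treated culture, replicate 2, was below the lowest vehicle culture, replicate 3. The vehicle cultures lay close together, with a coefficient of variation of 13.9%, while the treated cultures were spread more widely, at 45.6%. The treated cultures held 50.1%, 69.9% and 37.0% of their partners' level, and the fitted log2 fold change of Lmnb2 was -0.97 (SE 0.15). Without replicate 3 the log2 fold change of Lmnb2 was -0.73.

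Lmna encodes lamins A and C, the A-type lamins, by alternative splicing, and lies on the minus strand of chromosome 3 from 88480147 to 88509956. Its level was 354, 411 and 337 CPM in the vehicle replicates and 377, 430.5 and 337 CPM in the treated replicates. The 2 groups covered almost the same range, and replicate 2 was the highest culture in both. The log2 ratios of the pairs were 0.09, 0.07 and -0.0002, and the log2 fold change of Lmna was 0.05 (SE 0.06), or 0.09 without replicate 3. Counts behind these levels were between 13260 and 18857 per culture, so counting error was small beside the spread between cultures.

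**Figure D1:**
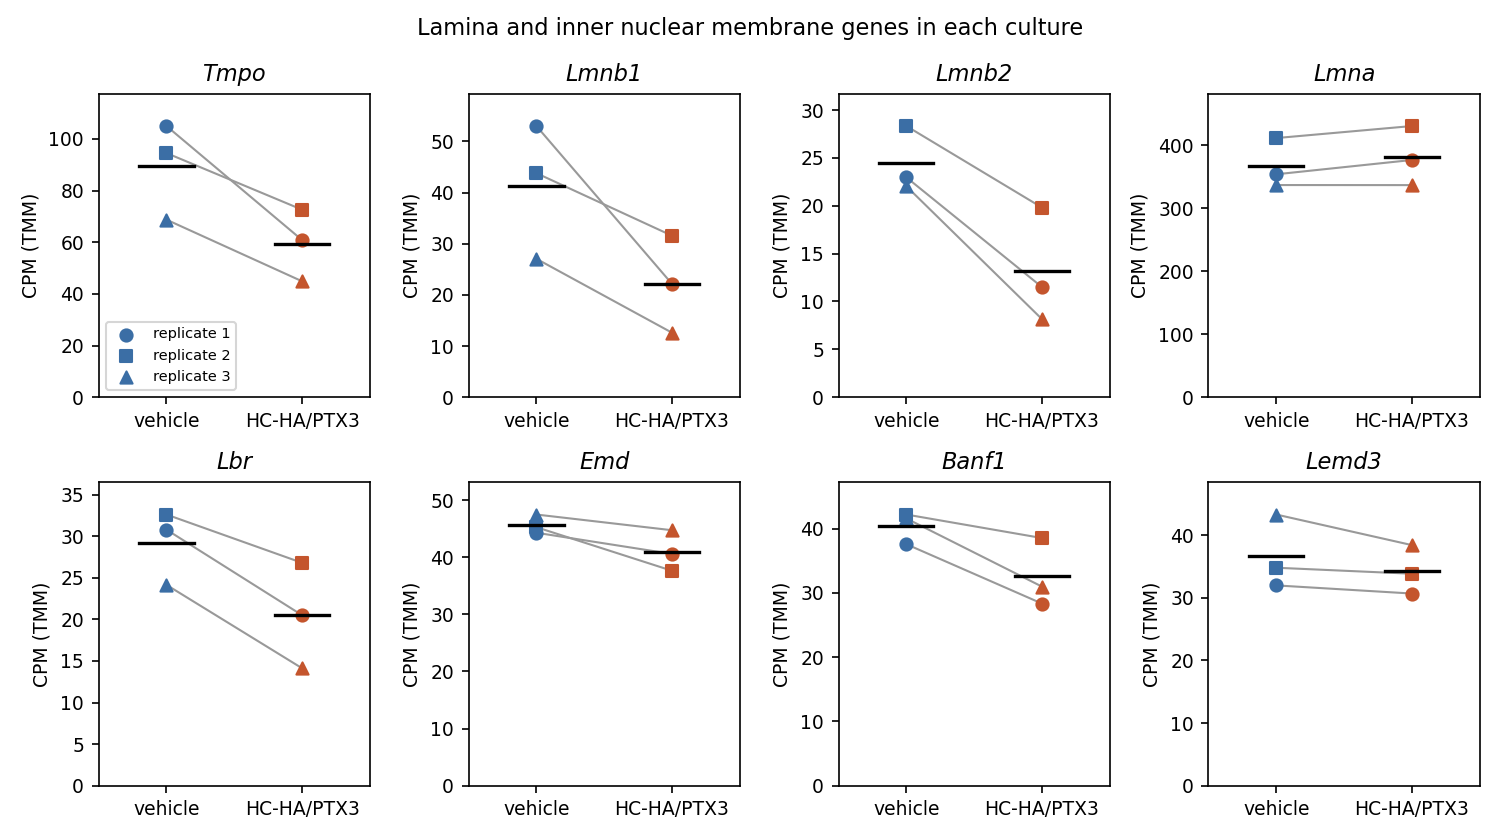
TMM-scaled CPM of the 8 members in each culture, with vehicle in blue and HC-HA/PTX3 in red, symbols for the replicate number, grey lines joining same-numbered cultures and black bars at the mean of 3 cultures. All members but Lmna are lower in the treated culture of every pair. Lmna runs from 337 to 411 CPM with vehicle and from 337 to 430.5 CPM with HC-HA/PTX3.

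The mix of lamin RNA also differed between the groups. Per kilobase of exon, Lmna made up 72.3%, 76.7% and 80.2% of the summed level of the 3 lamin genes in vehicle replicates 1 to 3. In the treated replicates its share was 86.4%, 82.8% and 90.4%. Every treated culture thus had a larger Lmna share than every vehicle culture. The share of both B-type lamins together was 23.6% ± 3.95 with vehicle and 13.5% ± 3.76 with HC-HA/PTX3 (SD, n = 3 each). The ratio of Lmna to B-type lamins per kilobase was 3.32 ± 0.718 and 6.85 ± 2.31 in the 2 groups. These shares and ratios use all exons of each gene and depend on the length used. Divided by the longest transcript, Lmna, Lmnb1 and Lmnb2 had vehicle means of 93.05, 14.5 and 6.92 CPM per kilobase. Their treated means on that length were 96.6, 7.77 and 3.73 CPM per kilobase. The shares follow from the members' own changes and were not tested.

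**Figure D2:**
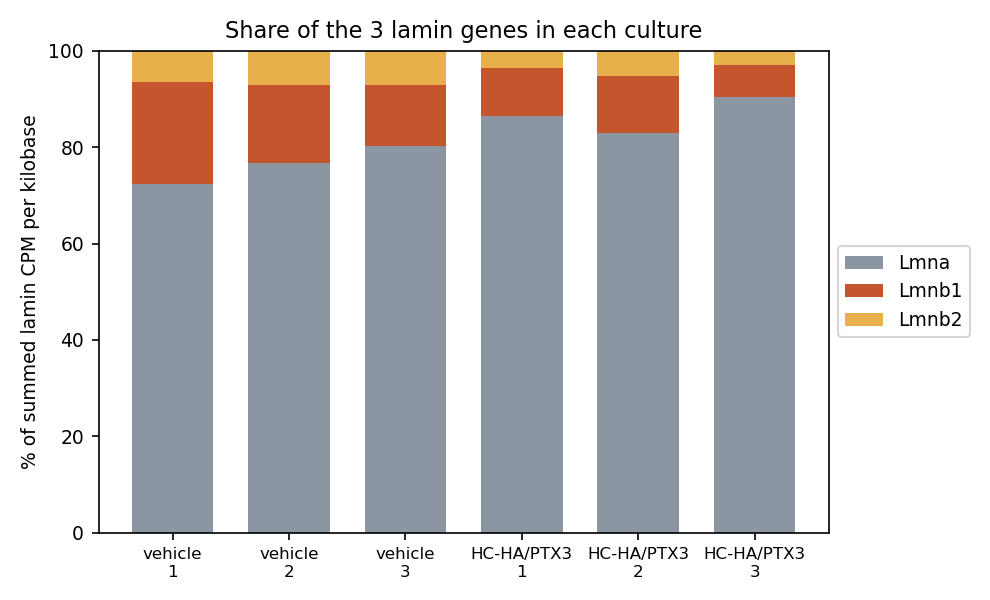
Share of Lmna, Lmnb1 and Lmnb2 in the summed CPM per kilobase of exon of the 3 lamin genes, with 1 bar per culture. The grey Lmna share runs from 72.3% to 80.2% in the vehicle cultures and from 82.8% to 90.4% in the HC-HA/PTX3 cultures.

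Lbr encodes the lamin B receptor, a protein of the inner nuclear membrane that binds B-type lamins and heterochromatin and also has sterol reductase activity. It lies on the minus strand of chromosome 1 from 181815335 to 181843046. Its level was 30.8, 32.6 and 24.2 CPM in the vehicle replicates and 20.5, 26.8 and 14.1 CPM in the treated replicates. Treated replicate 2 lay above vehicle replicate 3, so the groups overlapped, and replicate 3 was the lowest of each group. The log2 fold change of Lbr was -0.54 (SE 0.10), which placed it just inside the fold threshold. Without replicate 3 it was -0.42, and Lbr was then not past the threshold. The nearest member outside the threshold was Banf1, at -0.32.

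Emd encodes emerin and lies on the plus strand of chromosome X from 74254687 to 74261548. Emerin is a LEM-domain protein of the inner nuclear membrane that binds lamins, and its loss in humans causes Emery-Dreifuss muscular dystrophy. Emd was at 44.3, 45.3 and 47.5 CPM in the vehicle replicates and at 40.6, 37.6 and 44.7 CPM in the treated replicates. The 6 cultures lay close together, the vehicle group with a coefficient of variation of 3.58%, and treated replicate 3 was above vehicle replicate 1. For Emd the log2 fold change was -0.16 (SE 0.07), or -0.18 without replicate 3.

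Lemd3 encodes MAN1, another LEM-domain protein of the inner membrane, which binds SMAD proteins and dampens TGF-beta signalling. It lies on the minus strand of chromosome 10 from 120923413 to 120979332. Its level was 32.0, 34.8 and 43.3 CPM in the vehicle replicates and 30.7, 33.8 and 38.4 CPM in the treated replicates. Here, as for Emd, replicate 3 was the highest culture of each group, whereas it was the lowest of each group for Tmpo, Lmnb1, Lmnb2, Lbr and Lmna. The Lemd3 groups overlapped almost wholly. The log2 fold change of Lemd3 was -0.09 (SE 0.08), or -0.03 without replicate 3.

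Banf1 encodes barrier-to-autointegration factor, a small protein that bridges DNA and binds LEM-domain proteins, and lies on the minus strand of chromosome 19 from 5364638 to 5367168. Its level was 37.6, 42.2 and 41.6 CPM in the vehicle replicates and 28.3, 38.5 and 31.0 CPM in the treated replicates. Treated replicates 1 and 3 lay below all vehicle cultures, and treated replicate 2 was slightly above vehicle replicate 1. For Banf1 the log2 fold change was -0.32 (SE 0.08), or -0.25 without replicate 3. Of the annotated exon bases of Banf1, 28.6% overlap exons of Eif1ad on the opposite strand, a gene at a mean of 36.1 CPM, and the strand setting of the counting is not stated. Reads of Banf1 and Eif1ad in those 428 bases may therefore not be separated. A processed pseudogene, Gm14686, shares 13.6% of the exon bases of Emd, and Dnah14, at 0.544 CPM, shares 9.24% of those of Lbr.

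**Figure D3:**
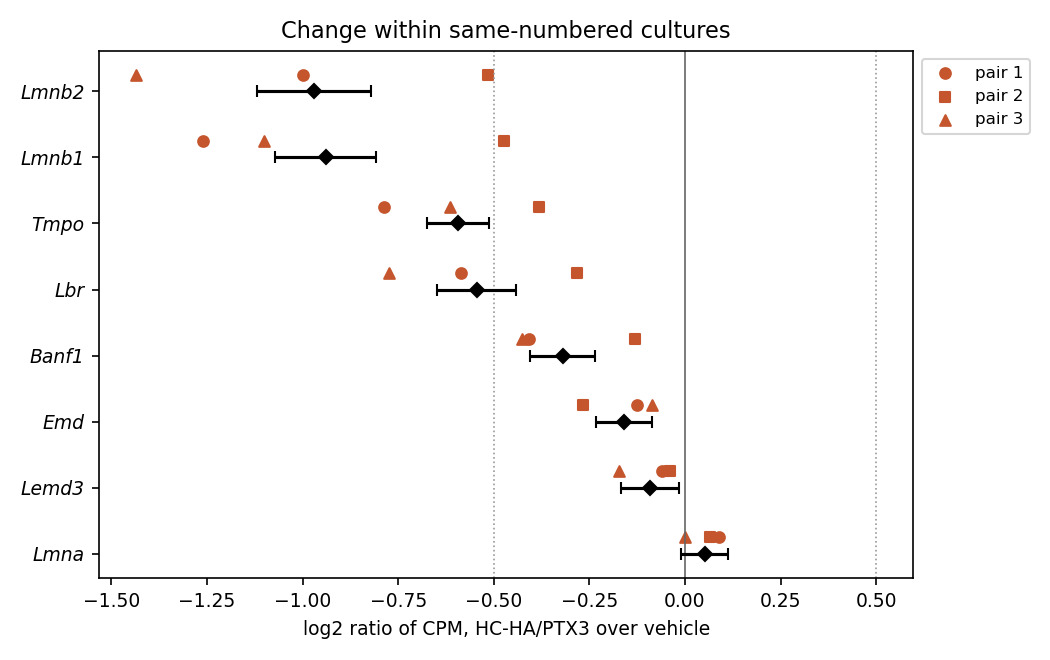
Log2 ratio of CPM in HC-HA/PTX3 over vehicle for each same-numbered pair (red symbols) and the log2 fold change of the blocked fit with its standard error (black diamonds and bars), with dotted lines at the fold threshold of 0.5. Lmnb2 and Lmnb1 lie farthest to the left, at -0.97 and -0.94, and Lmna lies at 0.05.

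The ratios differed in size between pairs. Pair 2 had the ratio nearest to 0 for Tmpo, Lmnb1, Lmnb2, Lbr, Banf1 and Lemd3, with log2 ratios of -0.38, -0.47, -0.52, -0.28, -0.13 and -0.04. For Emd the same pair had the ratio farthest from 0, -0.27. In size, pair 1 had the largest ratio for Tmpo, Lmnb1 and Lmna, and pair 3 for Lmnb2, Lbr, Banf1 and Lemd3. The spread of the log2 ratios over the 3 pairs was widest for Lmnb2 (SD 0.46) and Lmnb1 (SD 0.42) and narrowest for Lmna (SD 0.05).

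Per kilobase of exon, which allows levels to be compared between genes, Lmna led in every culture, at 62.9 ± 6.70 CPM per kilobase with vehicle (SD, n = 3). Banf1 followed at 27.0 ± 1.68 and Emd at 18.2 ± 0.649 CPM per kilobase in the vehicle cultures. Lmnb1, at 13.9 ± 4.44 CPM per kilobase, was below Emd on average and slightly above it in vehicle replicate 1, so these neighbours were not apart beyond their spread. Tmpo at 8.13 ± 1.70, Lemd3 at 7.63 ± 1.22, Lbr at 6.13 ± 0.936 and Lmnb2 at 5.70 ± 0.792 CPM per kilobase had ranges that overlapped, except that all vehicle cultures of Lemd3 were above all those of Lmnb2. With HC-HA/PTX3 the order was the same except that Lemd3, at 7.13 ± 0.808, stood above Tmpo, at 5.40 ± 1.26 CPM per kilobase. These levels and their order depend on the length used. The exons of Tmpo cover 11.0 kb in all but its longest transcript has 4.44 kb. Divided by the longest transcript, Tmpo reached 20.1 ± 4.20 CPM per kilobase with vehicle and stood above Lmnb1, at 14.5 ± 4.63. Emd reached 28.6 ± 1.02 on that length. The vehicle mean of Lbr, 8.31, was then above that of Lemd3, 7.73. In vehicle replicate 2, Lmnb2 was also above Lemd3, at 8.02 against 7.33 CPM per kilobase. Among all tested genes, the vehicle level of Lmna in CPM was at the 97.9th percentile, that of Tmpo at the 84.6th and that of Lmnb2, the lowest member, at the 59.5th.

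The promoter windows of Tmpo, Lbr and Lmnb2, which passed both thresholds, are shown beside that of Emd, which did not, and the matches in the other windows are given below without sequence. RefSeq sequences of GRCm38.p6, the assembly also called mm10, matched 7 of the 8 members, all but Lmnb1. Each line gives the 250 bases before a transcription start, 5' to 3' on the gene's strand. Capitals mark matches on either strand to an E2F motif (TTTCCCGC, TTTCGCGC, TTTGCCGC or TTTGGCGC), the cell cycle homology region CHR (TTTGAA) or a CCAAT box (CCAAT). Of 32851 mouse promoter windows of this length, 1.86% held an E2F match, 16.0% a CHR match and 33.8% a CCAAT match. The window before the upstream start of Tmpo, chr10:91171620-91171869 on the minus strand, lies outside the exons of Tmpo in GENCODE M21, within the annotated gene. That before its downstream start is chr10:91170551-91170800, minus strand, also within the gene and outside its exons. The window of Lbr is chr1:181842402-181842651, minus strand, again within the gene and outside its exons. The windows of Lmnb2 (chr10:80918246-80918495, minus strand) and Emd (chrX:74254437-74254686, plus strand) adjoin the annotated start of each gene.
Tmpo upstream start: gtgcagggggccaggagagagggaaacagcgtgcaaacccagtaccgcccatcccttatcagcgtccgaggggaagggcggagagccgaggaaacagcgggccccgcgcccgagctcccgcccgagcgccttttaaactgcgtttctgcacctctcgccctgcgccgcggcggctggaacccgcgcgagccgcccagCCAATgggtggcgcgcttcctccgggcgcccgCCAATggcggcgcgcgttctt
Tmpo downstream start: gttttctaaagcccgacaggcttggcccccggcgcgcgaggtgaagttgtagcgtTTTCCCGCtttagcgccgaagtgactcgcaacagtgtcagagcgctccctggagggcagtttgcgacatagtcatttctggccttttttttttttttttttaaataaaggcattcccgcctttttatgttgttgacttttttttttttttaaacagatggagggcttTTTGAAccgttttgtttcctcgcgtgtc
Lbr: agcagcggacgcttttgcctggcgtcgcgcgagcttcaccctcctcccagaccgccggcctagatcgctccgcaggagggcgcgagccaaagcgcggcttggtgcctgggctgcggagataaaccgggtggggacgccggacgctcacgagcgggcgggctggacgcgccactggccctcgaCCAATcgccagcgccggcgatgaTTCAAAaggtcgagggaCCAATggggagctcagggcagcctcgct
Lmnb2: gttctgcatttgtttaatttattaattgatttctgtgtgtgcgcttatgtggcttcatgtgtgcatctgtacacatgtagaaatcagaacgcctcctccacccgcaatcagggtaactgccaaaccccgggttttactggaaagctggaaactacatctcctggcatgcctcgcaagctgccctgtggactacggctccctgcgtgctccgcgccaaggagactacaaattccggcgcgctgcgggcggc
Emd: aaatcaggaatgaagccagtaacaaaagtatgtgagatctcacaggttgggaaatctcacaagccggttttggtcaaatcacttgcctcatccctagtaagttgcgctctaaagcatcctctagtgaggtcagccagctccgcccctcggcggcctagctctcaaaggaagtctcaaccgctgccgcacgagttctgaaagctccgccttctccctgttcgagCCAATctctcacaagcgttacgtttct

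The upstream start of Tmpo had 2 CCAAT matches, 53 and 21 bases before the start, and no E2F or CHR match. Its downstream start had 1 E2F match at 195 bases and 1 CHR match at 28 bases, and no CCAAT match. Lbr had a CHR match at 45 bases, flanked by CCAAT matches at 68 and 28 bases before the start. Lmnb2 had none of the 3 motifs in the window shown, and its log2 fold change, -0.97, was the lowest of the members. The second start of Lmnb2 had none either. Emd had 1 CCAAT match, at 27 bases. Among the other members that did not pass the thresholds, Banf1 had 1 E2F match at 81 bases and 1 CCAAT match at 185 bases before its first start, and none of the 3 motifs before its second. Lemd3 had 1 CCAAT match at 114 bases, and Lmna had 1 at 131 bases before its second start and none of the 3 motifs before its first. E2F and CCAAT matches were thus found both in members that passed the thresholds and in members that did not. The 2 CHR matches were in Tmpo and Lbr, which passed, but Lmnb2 passed with none and Lmnb1 had no promoter entry. Since 18.3% of all genes held a CHR match, nothing is read from this split. Of the cell cycle genes listed below with a promoter entry, an E2F match was held by 6 of 17 S phase genes and 1 of 18 G2 and M phase genes, against 2.16% of 27025 genes. A CHR match was held by 2 of the 17 and 7 of the 18, against 18.3%, and a CCAAT match by 12 of the 17 and 16 of the 18, against 37.5%. A match describes letters in the window only.

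Across the 6 cultures, the members were not alike in their pattern. Pearson's r with the log2 CPM of Tmpo was 0.996 for Lmnb1, 0.964 for Lbr and 0.898 for Lmnb2. It was 0.661 for Banf1, 0.374 for Lmna, 0.08 for Emd and -0.35 for Lemd3. Among 13575 genes compared, Lmnb1 was in place 6 of those most like Tmpo. The 5 genes ahead of it were Gen1, a resolvase of DNA junctions, Cenph, a centromere protein, Lig1, the ligase of DNA replication, Hnrnpul1, an RNA-binding protein, and Brip1, a DNA repair helicase, with r from 0.997 to 0.998. The 5 genes most like Lmna were Avpi1, Bbs12, Ddb1, Kctd11 and Rpain, with r from 0.985 to 0.997. These correlations are descriptions over 6 cultures that share replicate numbers and treatments.

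The S phase and G2 and M phase lists moved with Tmpo, Lmnb1, Lmnb2 and Lbr. The 20 S phase genes, most abundant Rrm1, a subunit of ribonucleotide reductase, summed to 699.5, 743 and 535 CPM in the vehicle replicates and to 373, 504 and 257 CPM in the treated replicates. In the blocked fit 15 of the 20 were called lower, 3 more were lower by adjusted p alone and 0 were higher, with a median log2 fold change of -0.85, against -0.01 over all tested genes. The largest changes in log2 fold change were -1.80 for Uhrf1, which maintains DNA methylation, -1.55 for Rrm2, the other reductase subunit, and -1.55, -1.14 and -1.11 for Mcm5, Mcm3 and Mcm6 of the replicative helicase. The 20 G2 and M phase genes, most abundant Mki67, which encodes the proliferation antigen Ki-67, summed to 1262, 848 and 399.7 CPM with vehicle and to 460.3, 452 and 101 CPM with HC-HA/PTX3. All 20 were called lower in the blocked fit, with a median of -1.34, led by Ckap2l at -1.80, Mki67 at -1.72, Top2a at -1.68, Kif11 at -1.45 and Ccnb1 at -1.44. No gene of either list was at 0 in any culture. The median r with Tmpo was 0.941 over the S phase list and 0.956 over the G2 and M phase list. For single genes, r with Tmpo was 0.978 for the fibroblast marker Col1a1, 0.956 for Mki67 and 0.951 for Top2a. It was 0.612 for Apoe, -0.29 for Tubb3 and -0.984 for Cdkn1a, so a high r with Tmpo was not particular to cell cycle genes. Both lists had their lowest sum in replicate 3 of each group, as did Tmpo, Lmnb1, Lmnb2 and Lbr, but also Lmna, so this trait is not particular to the members with lower RNA. The part of dividing cells in the lower levels of Tmpo, Lmnb1, Lmnb2 and Lbr was not tested.

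**Figure D4:**
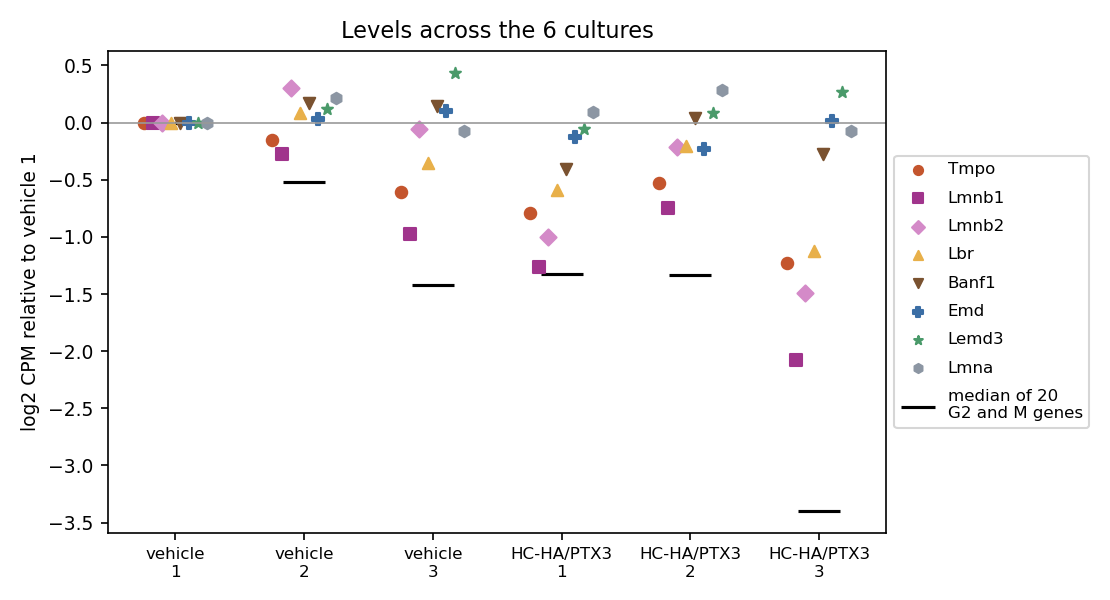
Log2 CPM of the 8 members in each culture relative to vehicle replicate 1, with black bars for the median of the 20 G2 and M phase genes on the same scale. Tmpo, Lmnb1, Lmnb2, Lbr and, by a small margin, Lmna are lowest in HC-HA/PTX3 replicate 3, as are the G2 and M phase genes, whereas Emd and Lemd3 are highest in vehicle replicate 3.

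Some fibroblast markers also moved with these members. The sum of all 9 was 3278, 2776 and 1409 CPM with vehicle and 2070, 1953 and 851 CPM with HC-HA/PTX3. In the blocked fit 5 of the 9 were called lower, namely Col1a1, Col1a2, Col3a1, Fbln1 and Postn, named after their values were seen. Lum, Pdgfra, Dcn and Thy1 were not called, with log2 fold changes of -0.31, -0.25, -0.09 and 0.03. Thy1, the most abundant fibroblast marker over all cultures though below Col3a1, Col1a1 and Col1a2 with vehicle, is also expressed by neurons. The 9 satellite glia markers, led by Apoe, summed to 2292, 1321 and 547 CPM with vehicle and to 2163, 1331 and 547.5 CPM with HC-HA/PTX3, with 0 called and 3 lower and 1 higher by adjusted p alone. The glial sum differed more between replicate numbers than between treatments. Of 8 Schwann cell myelin markers, led by Pmp22, 1 was called lower and 2 more were lower by adjusted p alone, with sums of 1042, 776 and 612 CPM and then 912, 663 and 579.5 CPM. The 9 macrophage markers, led by Lyz2, had 2 called lower, with sums of 77.3, 99.7 and 87.7 CPM and then 75.2, 106 and 69.5 CPM. The 8 endothelial markers, led by Cdh5, had 0 called and 1 higher by adjusted p alone (280, 302.5 and 342 CPM, then 297, 345 and 324 CPM), and the 8 mural cell markers, led by Rgs5 over all cultures and by Pdgfrb with vehicle, had 1 called lower and 1 higher (512, 628.5 and 457 CPM, then 518.5, 599 and 319 CPM). Of the 12 neuronal markers, 2 were called higher and 0 lower, and 1 was higher and 1 lower by adjusted p alone. No marker was at 0 in all cultures, and the part of these cell types in the members' changes was not tested.

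Around the members, 9 lists of envelope genes held 95 genes, of which 93 were tested. In the blocked fit 9 of the 93 were called lower (9.68%, against 5.38% of all tested genes) and 0 higher. The median log2 fold change was -0.09, against -0.01 over all tested genes. With no fold threshold, 27 of the 93 were lower and 4 higher by adjusted p, as were 2103 and 1402 of all 18277 tested genes. For higher calls, edgeR's quasi-likelihood test gave 6 genes an unadjusted p under 0.05, and DESeq2 and limma-voom also called 0. Of the 9 genes called lower, 3 are also in the G2 and M phase list, and 6 of the other 90 were called lower. Without the block edgeR called 0 of the 93 in either direction, with 12 lower and 3 higher at an unadjusted p under 0.05, and the adjusted p of the 9 genes was then 0.253 to 0.572.

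Among 10 other LEM-domain and inner nuclear membrane proteins, 2 were called lower, and 1 more was lower and 1 higher by adjusted p alone, without passing the fold threshold. Ankle1, a LEM-domain endonuclease with no membrane-spanning domain that acts on DNA bridges between dividing cells, was at 4.57, 3.77 and 1.23 CPM with vehicle and at 1.89, 1.79 and 0.330 CPM with HC-HA/PTX3. Its log2 fold change was -1.31 (SE 0.21) and its adjusted p was 0.00266 by quasi-likelihood in edgeR, Benjamini-Hochberg adjusted, lower in 3 of 3 pairs. Nrm, which encodes nurim, a membrane protein of the inner envelope, changed by -0.87 (SE 0.16, adjusted p = 0.00445 by quasi-likelihood in edgeR, Benjamini-Hochberg adjusted), also lower in 3 of 3 pairs. The most abundant gene of the list over all cultures, Tor1aip2, an activator of torsins, was not called, at -0.17. Of 5 genes for farnesylation and trimming of lamins, 1 was called lower, Zmpste24, the protease that matures prelamin A. It was at 73.7, 76.5 and 66.9 CPM with vehicle and at 47.0, 58.2 and 45.4 CPM with HC-HA/PTX3, so that the groups did not overlap. Its log2 fold change was -0.53 (SE 0.07, adjusted p = 0.00141 by quasi-likelihood in edgeR, Benjamini-Hochberg adjusted), lower in 3 of 3 pairs, whereas its substrate's gene Lmna was at 0.05. Without replicate 1, Zmpste24 was not called. Icmt, the methyltransferase of farnesylated proteins and the most abundant of that list, was not called, at 0.30, and was higher by adjusted p alone.

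The LINC complex, which couples the lamina to the cytoskeleton, had 0 called of 8 tested genes and a median of 0.02, with Syne1, a giant nesrin, the most abundant, at 0.04. Sun3 was not tested and had 0 counts in vehicle replicate 3, where the limit of 3 counts is 0.0536 CPM. The 4 torsins, led by Tor1b, had 0 called, 1 lower by adjusted p alone and a median of 0.02. The lower gene, Tor2a, at -0.49, was called by limma-voom with the block and with all genes of at least 1 count. The 3 sterol enzymes around the step that the lamin B receptor can carry out, led by Cyp51, had 0 called and a median of -0.06, beside -0.54 for Lbr. Of the 14 chromatin partners of the lamina, led by Ctnnb1, 0 were called, 4 were lower and 1 higher by adjusted p alone, and the median was -0.09. Cbx5 of this list, at -0.45, was called lower in edgeR without replicate 2. So were Ankle2 of the inner membrane list and Nup188 of the pore list. Of 9 tested ESCRT genes that reseal the envelope after mitosis, led by Chmp4b, 0 were called, 1 was lower and 1 higher by adjusted p alone, and the median was 0.02. Each of these counts of 0 is from edgeR's blocked fit.

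Of the 32 nuclear pore genes, 27 had a log2 fold change below 0, and 2 were called lower. Their median was -0.17, against -0.01 over all tested genes. Nup205, a scaffold protein of the inner ring, was at 61.3, 72.8 and 66.1 CPM with vehicle and at 34.8, 55.3 and 33.7 CPM with HC-HA/PTX3. Its log2 fold change was -0.73 (SE 0.10, adjusted p = 0.00156 by quasi-likelihood in edgeR, Benjamini-Hochberg adjusted), lower in 3 of 3 pairs, and its groups did not overlap. Nup210, a membrane protein of the pore, changed by -0.55 (SE 0.17, adjusted p = 0.0453 by quasi-likelihood in edgeR, Benjamini-Hochberg adjusted) and was not called without replicate 1 or without replicate 3, in DESeq2 with the block, after ComBat-seq, or with upper-quartile scaling or raw library sizes. With no fold threshold, 2103 of all 18277 tested genes were lower by adjusted p, 984 of them past both thresholds. A further 10 pore genes had an adjusted p under 0.05 and a smaller decrease. Among them Ndc1, at -0.498, was called lower by DESeq2 with the block, and in edgeR without replicate 2 or without replicate 3. In edgeR, Ndc1 was also called with relative log expression (RLE) scaling and with all genes of at least 1 count. Ranbp2, the most abundant over all cultures though below Tpr with vehicle, was at 0.07. By position in the pore, a grouping made after the values were seen, the median was -0.38 for 4 membrane proteins, -0.26 for 5 inner ring proteins, -0.17 for 4 of the central channel, -0.13 for 3 of the nuclear basket, -0.09 for 9 of the Y complex and -0.01 for 7 of the cytoplasmic side. Of the 8 kinase and cyclin genes that act in envelope breakdown, led by Nek7, all had a log2 fold change below 0, with a median of -0.43. Of these 4 were called lower and 1 was lower by adjusted p alone. Cdk1, Ccnb1 and Plk1 of the called genes belong to the G2 and M phase list too, with log2 fold changes of -1.42, -1.44 and -1.34. Vrk2, a kinase related to the one that releases the Banf1 protein from chromatin, changed by -0.53 (SE 0.16) and was not called without replicate 1 or without replicate 2, in DESeq2 with the block, or with upper-quartile scaling or raw library sizes. Of 7 CDK inhibitors, Cdkn2c was called lower, at -1.08, and Cdkn1a, which encodes p21 and was the most abundant, was called higher, at 0.77 (SE 0.08), with 1 more higher by adjusted p alone.

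**Figure D5:**
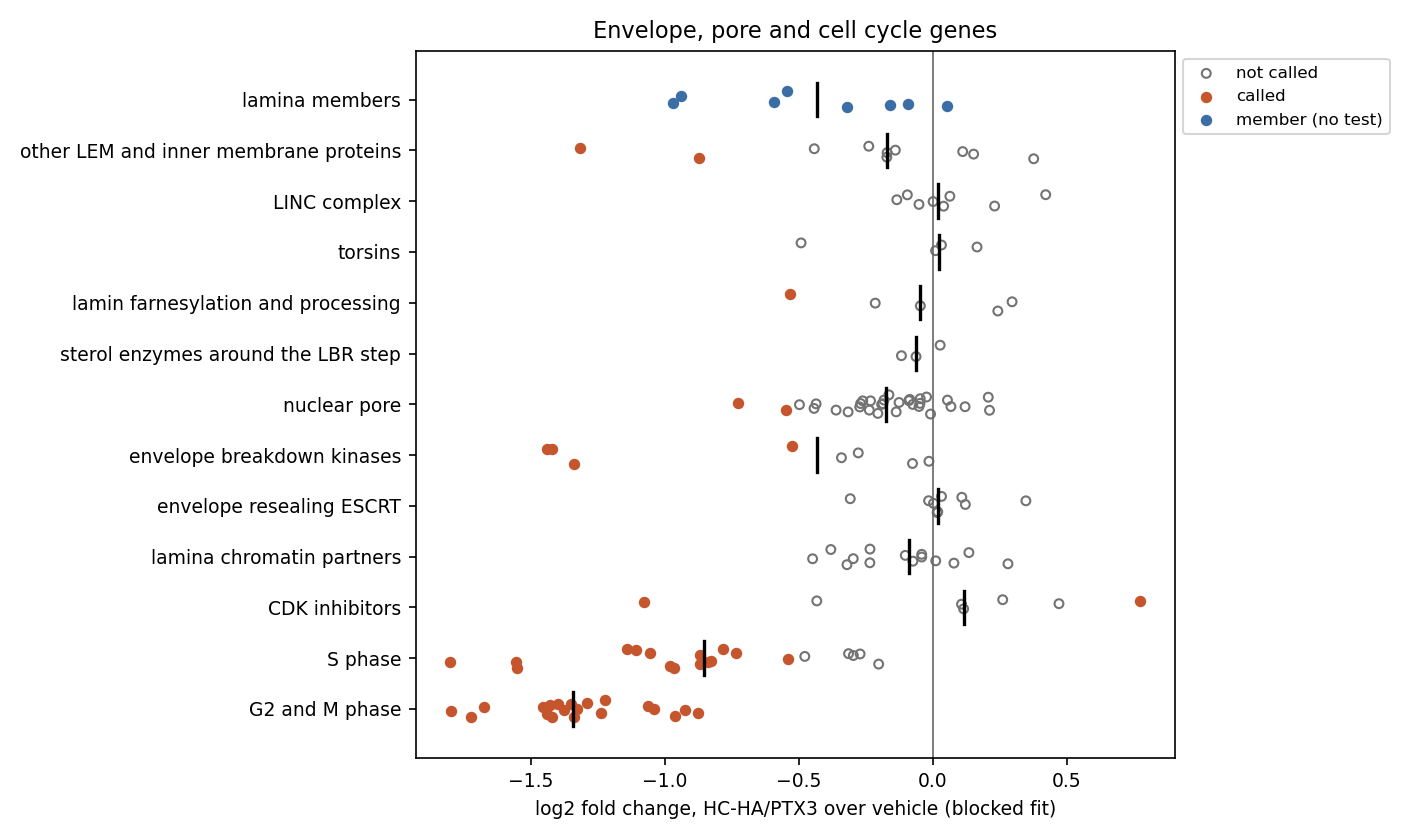
Log2 fold change of the blocked fit for each gene of the envelope, pore and cell cycle lists, with filled red points for called genes, open points for genes not called, blue points for the 8 members and black bars for each list's median. The members run from -0.97 to 0.05, and the G2 and M phase genes, with a median of -1.34, lie farthest to the left.

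Without the block, the standard errors of the members were larger. For Lmnb1 the log2 fold change was then -0.90 with an SE of 0.37, against 0.13 with the block, and that of Tmpo was -0.59 with an SE of 0.22, against 0.08. In that fit 0 of the 18277 tested genes were called by edgeR, and 2089 had an unadjusted p under 0.05. The study does not state that the replicate numbers mark batches or separate animals, and every call given here with the block rests on using them as batches. With the block, the p-values weigh a change against the spread left after differences between replicate numbers are taken out. Without it, they weigh a change against the spread between cultures of a group. Both are spreads among these cultures only.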

How the data were processed

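The authors aligned read pairs to mm10 and counted reads per gene, and the deposited values are raw counts of 35976 genes in 6 libraries. The methods and processing notes name HISAT2 and featureCounts, the file headers name STAR, and versions and the strand setting were not given. Counts were scaled by TMM and tested with edgeR 4.0.16 (R 4.3.3) by glmQLFit and glmQLFTest, with Benjamini-Hochberg adjustment over the 18277 genes that passed filterByExpr. Calls needed a log2 fold change beyond 0.5 in size with an adjusted p under 0.05. Replicate numbers were a blocking term since the study's methods use batch and condition as terms, without saying which cultures share a batch. Paired deviations from the group means correlated at 0.631, 0.536 and 0.774 for same-numbered cultures over the tested genes, and at -0.613 to 0.148 for others. The chi-square over its degrees of freedom was 34.2 to 120.2 between libraries of a group, so none was a duplicate. A gene at 0 could have up to 0.0808 CPM (3 counts), a limit for counting error only.

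The members and lists were chosen with earlier results of these data known. Genes named from a list are its called genes (at most 5, by absolute log2 fold change) and its most abundant gene (mean of 6 cultures), and for Tmpo and Lmna the 5 most alike by Pearson's r (log2 CPM with a prior count of 2, mean of at least 1). Exon lengths and positions are from GENCODE M21, and 5 list genes were found under older symbols through a RefSeq table of GRCm38.p6. Alternatives were no block, DESeq2 1.42.0, limma-voom (limma 3.58.1), ComBat-seq (sva 3.50.0) followed by limma, other scalings, filters and thresholds, and pairs or cultures left out. The 10 min arm was not analysed here.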

Additional observations from a re-analysis of the deposited data

How the results depend on the processing

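With no replicate block, edgeR called 0 genes lower and 0 higher over all tested genes and 0 list genes, also with any single culture left out, while 2089 of 18277 genes had an unadjusted p under 0.05 and the smallest adjusted p was 0.0581. With the block in DESeq2, 844 were lower and 386 higher, and after ComBat-seq 1115 were lower and 1012 higher, so the share of lower calls was 68.6% and 52.4%, against 61.8% in the blocked edgeR test and 55.8% with upper-quartile scaling. Without the fold threshold 2103 genes were lower and 1402 higher, and 27 list genes were lower and 4 higher. Leaving out a pair gave 630 to 989 lower and 248 to 582 higher genes, the lowest counts without replicate 1, and 6 to 12 list genes lower and 0 higher. The cause of these differences was not tested. No member changed sign among those past the thresholds. Tmpo, Lmnb1, Lmnb2, Lbr, Emd and Banf1 were below 0 in all 18 alternatives, Lemd3 in 17 and Lmna in 2. The members past both thresholds numbered 4 in the blocked edgeR test, 3 after ComBat-seq and without replicate 3 (Lbr lost), 3 without replicate 1 (Tmpo lost) and 0 with no replicate block. These numbers describe the label only, since the members were chosen on this contrast. With a pair left out, the log2 fold change ran from -0.71 to -0.49 for Tmpo, -1.19 to -0.77 for Lmnb1, -1.22 to -0.73 for Lmnb2 and -0.68 to -0.42 for Lbr. With no replicate block and a culture left out, Lmna ran from -0.05 to 0.14 and Lemd3 from -0.19 to 0.04. Spearman's rho with Tmpo was 1 for Lmnb1, 0.943 for Lbr and 0.886 for Lmnb2. It was 0.543 for Banf1, 0.486 for Lmna, -0.03 for Emd and -0.26 for Lemd3, against Pearson's r of 0.661, 0.374, 0.08 and -0.35. Every member had at least 321 counts in each culture, and each group had 3 cultures. Counting error was set beside the spread between cultures for Lmna only.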
